A study of Danio rerio with 5 samples.

Results

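The zona pellucida genes encode the glycoproteins of the egg coat. They were represented on the array by 14 of 15502 probe sets, which stood for 13 of the 8793 genes named there. A probe set belonged to the group when GEO's platform annotation gave it a single symbol beginning with zp2, zp3 or zpcx. The genes were zp2.6, zp2l1, zp2l2, zp3.1, zp3a.1, zp3a.2, zp3b, zp3c, zp3d.1, zp3d.2, zp3f.1, zp3f.2 and zpcx, with zp3.1 on 2 probe sets.

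The samples were upper digestive tract from adult zebrafish aged 3 months on the AB background, with 1 array per pool. The zCdx1b transgenic group had 3 pools and the wild-type group had 2, and tissue of 3 fish went into each pool. The transgene joined zebrafish Cdx1b and EGFP to a keratin 5 promoter fragment of the zebrafish and was inserted with Tol2 transposase into AB fertilized eggs. Whether the transgenic fish came from 1 founder, their sex and the limits of the dissection are not stated in the labels.

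Zona pellucida proteins share a polymerization domain through which they assemble into filaments of the egg envelope, which in fish becomes the chorion. In zebrafish their transcripts are typical of the ovary, where growing oocytes make them, whereas in some other fish, such as medaka, part of the egg envelope is made in the liver under estrogen. The zp2 and zp3 classes share their names with the ZP2 and ZP3 proteins of the mammalian egg coat, but a shared name need not mean a direct counterpart. Neither class is a usual marker of gut epithelium.

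Most egg coat genes differed more between the 3 transgenic pools than between the 2 groups. The exception was zp2l2, with an SD over the zCdx1b pools of 0.29 and a difference between group means of 0.44. In all 14 probe sets zCdx1b pool 3 was the highest of the 5 pools and zCdx1b pool 2 the second highest. That rank order was found in 4.65% of the 10335 probe sets kept by the filter on low values. In 11 of the 14 probe sets zCdx1b pool 1 was the lowest of the 5, which was so in 26.0% of those kept. The full order, with zCdx1b pool 1 below both wild-type pools, these below zCdx1b pool 2 and that below zCdx1b pool 3, held for 11 of the 14 and for 10 of the 12 member probe sets kept, against 2.36% of all kept. For zp3c and zp3d.1, counted among the 11, zCdx1b pool 1 and both wild-type pools were all at or below background, so their rank there has no meaning, and the order was measured for 9. This order was picked out after the values were seen and is given as a description.

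**Figure D1:**
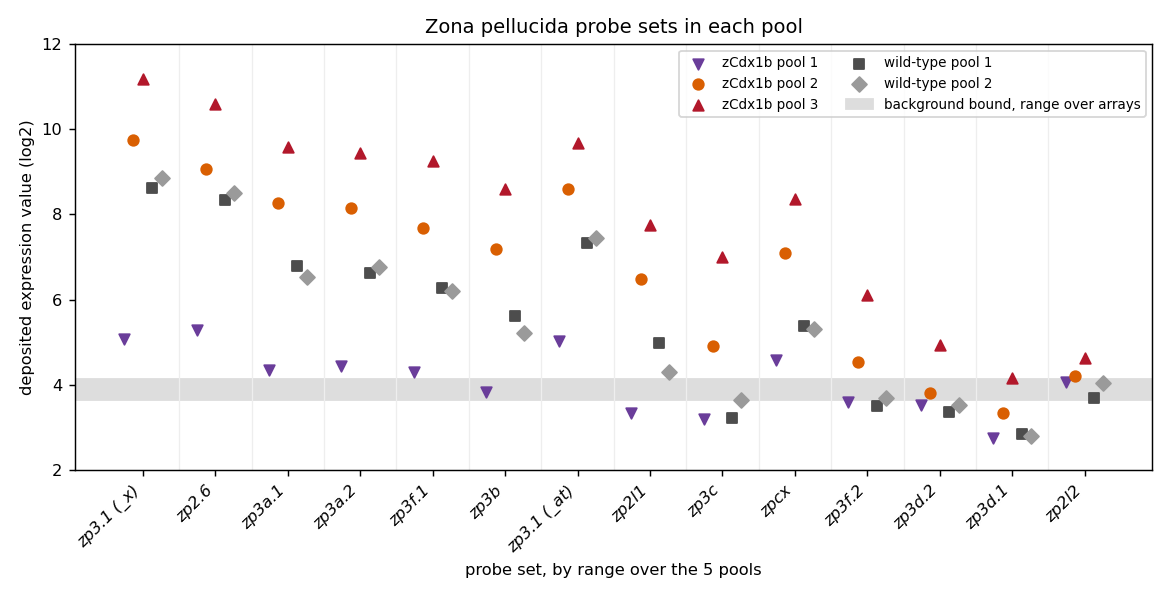
Deposited log2 expression value (vertical axis) of each of the 14 zona pellucida probe sets (horizontal axis, ordered by range over the pools) in the 5 pools, with 1 point per pool and no averaging. The grey band spans the background bounds of the 5 arrays, from 3.64 to 4.13, and zCdx1b pool 3 is the top point for every probe set.

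Values are on a log2 scale, so a difference of 1 is a doubling. The background bound of an array was the highest value among 44 bacterial and tag control probe sets, and lay between 3.64 and 4.13. Levels of different probe sets are not compared, since probes differ in how they bind.

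Among the zp2 class, zp2.6 was the clearest case. It read 5.29, 9.07 and 10.60 in zCdx1b pools 1, 2 and 3, against 8.35 and 8.50 in wild-type pools 1 and 2. The transgenic values thus lay on both sides of the wild-type values, with zCdx1b pool 3 at 39.7-fold the level of zCdx1b pool 1. The means were 8.32 ± 2.73 (SD, n = 3) in zCdx1b pools and 8.42 ± 0.10 (SD, n = 2) in wild-type pools. The limma change was -0.11 (log2, SE 1.44, 95% interval -3.62 to 3.41, Benjamini-Hochberg adjusted p = 0.973). The zp2-like gene zp2l1 read 3.35, 6.48 and 7.75 in zCdx1b pools 1, 2 and 3, against 5.0 and 4.30 in wild-type pools 1 and 2. Its zCdx1b pool 1 value lay below the background bound, so zCdx1b pool 3 was at least 13.9-fold above it. The related zp2l2 was near background throughout, at 4.08, 4.22 and 4.63 in zCdx1b pools and 3.69 and 4.05 in wild-type pools. It was the single member whose groups did not overlap, in 1 of the 12 member probe sets kept against 50.9% of all kept.

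Among the zp3 class, zp3.1 had the widest range of any member. Its probe set with the suffix _x_at read 5.09, 9.75 and 11.18 in zCdx1b pools 1, 2 and 3, against 8.62 and 8.87 in wild-type pools. Its other probe set read 5.04, 8.59 and 9.69 in zCdx1b pools and 7.34 and 7.44 in wild-type pools. Both gave the same order of pools, and zCdx1b pool 3 exceeded zCdx1b pool 1 by 68.3-fold on the first and 25.1-fold on the second. Affymetrix gives the suffix _x_at to probe sets whose probes may be shared with other sequences. In the RefSeq gene order zp3.1 is followed by zp3, and zp3 by zp3.2, so which copy the _x_at probe set measured is uncertain.

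The neighbouring pair zp3a.1 and zp3a.2 moved almost alike. zp3a.1 read 4.35, 8.26 and 9.58 in zCdx1b pools, against 6.78 and 6.53 in wild-type pools. zp3a.2 read 4.45, 8.14 and 9.43 in zCdx1b pools, against 6.64 and 6.77 in wild-type pools. After each was centred on its own mean over the 5 pools, they differed by a root mean square of 0.16. The median over all 91 pairs of member probe sets was 0.79, but many of those pairs hold a member at or near background. How far their probes cross-bind was not tested. The neighbouring zp3d.1 and zp3d.2, mostly at background, were likewise close to each other, at 0.14, while zp3f.1 and zp3f.2, also neighbours, were 0.90 apart. In zCdx1b pool 1 and both wild-type pools zp3f.2 was at or below background, so that distance is uncertain. Likeness was not particular to neighbours, since zp3a.2 and zp3f.1, which are not neighbours, were also 0.16 apart, as were zp2l1 and zp3b.

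The egg coat gene zp3b read 3.84, 7.19 and 8.60 in zCdx1b pools, against 5.62 and 5.23 in wild-type pools. zp3f.1 read 4.31, 7.69 and 9.26 in zCdx1b pools, against 6.27 and 6.20 in wild-type pools. In both genes the wild-type pools lay between zCdx1b pool 1 and zCdx1b pool 2 and differed from each other by no more than 0.39. The zp-family gene zpcx had the same order with a smaller gap at the bottom, at 4.59, 7.10 and 8.36 in zCdx1b pools and 5.39 and 5.32 in wild-type pools. Relative to zCdx1b pool 1, zCdx1b pool 3 was at least 25.1-fold higher for zp3b, 30.8-fold higher for zp3f.1 and 13.6-fold higher for zpcx.

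The remaining zp3 genes were at background outside zCdx1b pools 2 and 3. zp3c read 3.21, 4.92 and 7.0 in zCdx1b pools and 3.22 and 3.65 in wild-type pools. zp3f.2 read 3.60, 4.55 and 6.12 in zCdx1b pools and 3.51 and 3.68 in wild-type pools. Both were above the background bound in zCdx1b pools 2 and 3 alone. zp3d.1, at 2.75, 3.35 and 4.16 in zCdx1b pools and 2.86 and 2.81 in wild-type pools, passed its bound in zCdx1b pool 3 alone. zp3d.2, at 3.52, 3.81 and 4.94 in zCdx1b pools and 3.36 and 3.54 in wild-type pools, did so in zCdx1b pools 2 and 3. For these low genes any difference between zCdx1b pool 1 and wild-type pools was not detectable above background.

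For 10 of the 14 probe sets zCdx1b pool 3 exceeded zCdx1b pool 1 by over 3 on the log2 scale, a gap found in 215 of the 10335 probe sets kept. In these 10 the step between zCdx1b pools 3 and 2 was alike, from 1.1 to 2.09 with a median of 1.36, while the step between zCdx1b pools 2 and 1 ran from 2.52 to 4.67 in the 7 whose zCdx1b pool 1 value was above background. In these 7, zCdx1b pool 1 lay between -3.66 and -0.77 against the wild-type mean, with the smallest gap at zpcx. In the 9 whose wild-type values were above background, zCdx1b pool 2 lay between 0.64 and 1.83 and zCdx1b pool 3 between 2.18 and 3.18 against the wild-type mean. Wild-type pools 1 and 2 differed by -0.25 to 0.69 in those 9. In bulk tissue, fewer cells that carry a transcript and less of it per cell cannot be told apart.

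The spread within the transgenic group was at the upper end of the array. The SD over the 3 zCdx1b pools had a median of 2.35 over the 14 probe sets, from 0.29 for zp2l2 to 3.19 for zp3.1, against a median of 0.18 over all probe sets kept. These SDs stood between the 74.6th and the 99.9th percentile of the probe sets kept, with a median at the 99.3rd. The SD over the 2 wild-type pools had a median of 0.12 over the 14, against 0.32 over all kept. Without zCdx1b pool 1 the members' median SD among zCdx1b pools was 0.92.

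**Figure D2:**
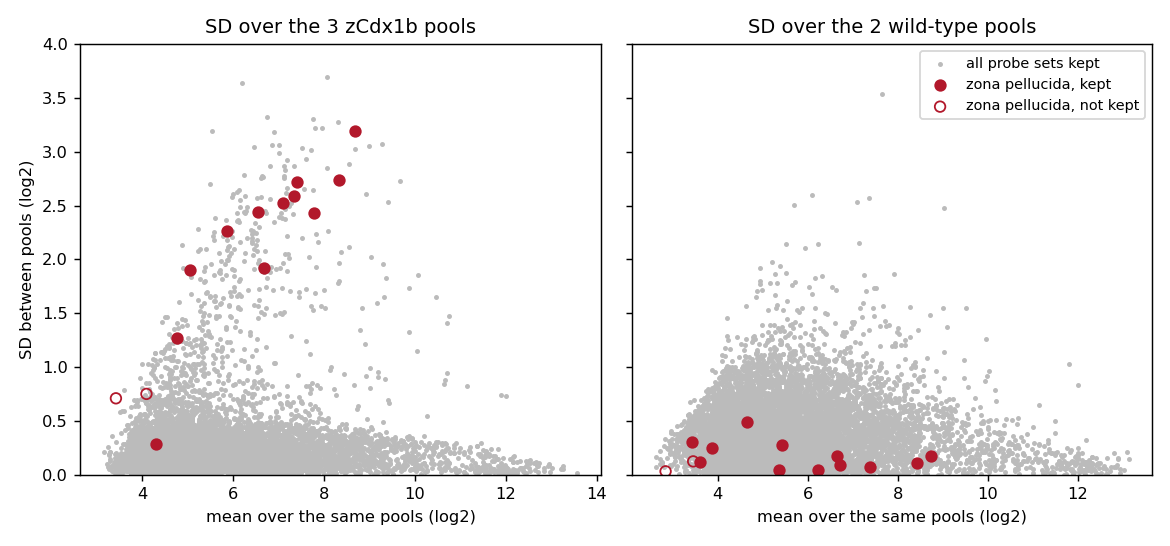
SD between pools (vertical axis, log2) against the mean over the same pools (horizontal axis, log2) for the 3 zCdx1b pools (left) and the 2 wild-type pools (right), with 1 point per probe set. Zona pellucida probe sets (red, open where they did not pass the filter on low values) reach an SD of 3.19 in the zCdx1b pools and at most 0.49 in the wild-type pools.

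The design asks how the transgene altered expression in this tissue, and for the egg coat genes no difference between the groups passed the test. A total of 12 of the 14 member probe sets passed the filter, and 0 of these 12 had a limma adjusted p under 0.05, where 21.8% of all probe sets tested were called, 10.1% higher and 11.7% lower. The unadjusted p was under 0.05 for 0 of the 12, and the adjusted p ran from 0.241 to 0.984. Fitted changes ran from -0.11 for zp2.6 to 1.61 for zp3c (log2, SE 1.01, adjusted p = 0.327). The intervals were wide: that of zp3b, with a change of 1.12, reached from -2.04 to 4.28, so large differences in either direction were not detectable with these 5 pools. Of the 12, zp2l2, zp3c and zp3f.2 passed the filter through zCdx1b pools only. For zp3c and zp3f.2 the zCdx1b pool 1 value and all wild-type values were at or below the bound, so the size of their change is uncertain.

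The outcome of that test rested on 1 pool. Without zCdx1b pool 1, 10 of the 12 probe sets were higher in the zCdx1b pools at a limma adjusted p under 0.05, where 9.4% of all probe sets were called higher and 7.82% lower. Of the 10, zp3c and zp3f.2 had entered the test only through the zCdx1b pools, where they are high, so their calls carry no weight. Of the 9 probe sets that reached the filter in wild-type pools too, 8 were called. The changes were then 2.47 for zp3b (log2, SE 0.50, adjusted p = 0.0169) and 2.38 for zpcx (SE 0.46, adjusted p = 0.0140). The exceptions were zp2.6, at 1.41 with an adjusted p of 0.0912, and zp2l2, at 0.55 with an adjusted p of 0.211. Leaving out any other single pool gave 0 calls among the 12, where 9.47% of all probe sets were called without zCdx1b pool 2, 17.4% without zCdx1b pool 3, 20.2% when wild-type pool 1 was left out and 25.3% when it was wild-type pool 2. In all 12 probe sets zCdx1b pools 2 and 3 lay above both wild-type pools. Leaving out zCdx1b pool 1 thus fixed the direction in advance, and these calls restate the order already seen. The labels give no reason to set zCdx1b pool 1 aside, so the values with all pools remain the comparison of the design.

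**Figure D3:**
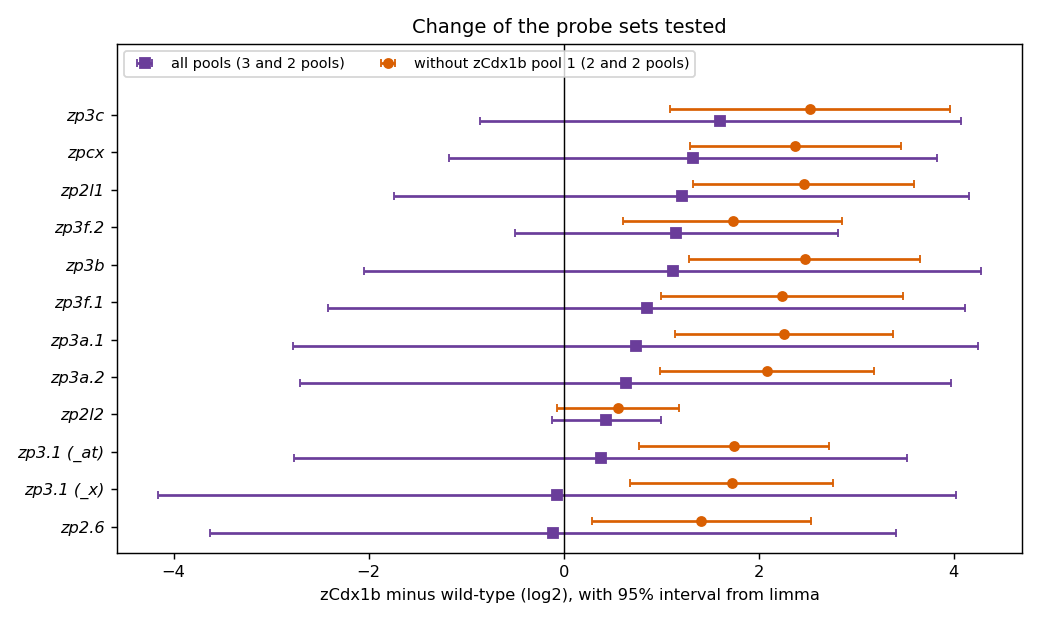
Fitted change, zCdx1b minus wild-type (horizontal axis, log2), with its 95% limma interval for the 12 zona pellucida probe sets tested (vertical axis), over all 5 pools (purple squares) and without zCdx1b pool 1 (orange circles). With all pools each interval includes 0, and without zCdx1b pool 1 the interval of zp2l2 alone includes it.

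Probe sets that the annotation ties to several genes, at least 1 of them a zona pellucida gene, were not members and are named for no gene. There were 7, and they had the same order: their medians were 4.77, 9.06 and 10.21 in zCdx1b pools 1, 2 and 3, against 7.88 and 7.75 in wild-type pools 1 and 2. Among other genes with a zona pellucida domain, the egg envelope gene zpax1 read 3.89, 8.07 and 9.38 in zCdx1b pools and 6.68 and 6.80 in wild-type pools. Its relative zpax4 read 3.89, 8.13 and 9.5 in zCdx1b pools and 6.53 and 6.37 in wild-type pools. Both thus followed the members, without passing the test (limma adjusted p = 0.903 and 0.799). Both were higher without zCdx1b pool 1, by 1.98 and 2.36 (limma adjusted p = 0.0283 and 0.0172). That direction was fixed in advance, since zCdx1b pools 2 and 3 already lay above both wild-type pools. Another, zpd, stayed near background, at 3.42, 3.60 and 4.36 in zCdx1b pools and 3.27 and 3.67 in wild-type pools.

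The domain alone did not go with this pattern. The gene cuzd1.1, whose mammalian counterpart is a pancreatic zymogen granule protein with a zona pellucida domain, read 12.05, 11.88 and 11.58 in zCdx1b pools and 2.94 and 3.47 in wild-type pools. It rose by 8.63 (log2, SE 0.27, limma adjusted p = 2.2e-05), at least 247-fold, and its zCdx1b pools spanned 0.47 where those of zpax1 spanned 5.49. The gene cuzd1.1 passed the filter through the zCdx1b pools only, where it is high. Its call thus carries no weight, and its values are given as a description. Of the 4 such genes measured outside the membership, 3 passed the filter, with a median change of 0.72. Of these 1 rose and 0 fell, where 10.1% of all probe sets tested rose and 11.7% fell.

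Genes of oocytes and germ cells had the members' order in part. Of 28 measured genes on that list, 22 passed the filter, of which 1 rose, 1 fell and 20 did not pass the test. Their median change was 0.95. Over all probe sets tested 10.1% rose, 11.7% fell and the median was -0.10. The full order of pools held for 14 of the 28, all among the 22 kept, against 2.36% of all probe sets kept. In btg4, buc, gtsf1, mos, nanos3, wee2 and zar1l, zCdx1b pool 1 and 1 wild-type pool were at or below background. The rank of those pools has no meaning there. In larp6b zCdx1b pool 1 was below background, at 3.67, and wild-type pool 1 read 3.69, so a gap between them was not measured. The linker histone gene h1m read 3.66, 7.19 and 9.11 in zCdx1b pools and 5.97 and 5.84 in wild-type pools. The zygote arrest gene zar1, active in oocytes, read 3.57, 6.92 and 8.34 in zCdx1b pools and 5.25 and 5.20 in wild-type pools. Both had zCdx1b pool 1 at background and zCdx1b pool 3 on top, as had btg4, buc, gtsf1 and org, while cldnd and cth1 had the same order with zCdx1b pool 1 above the bound. Among them buc, the organizer of the Balbiani body of the oocyte, read 3.49, 5.96 and 7.58 in zCdx1b pools and 4.34 and 3.98 in wild-type pools.

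Other germ cell genes did not have this full order, though some had zCdx1b pool 3 highest and zCdx1b pool 2 second. These were bmp15, dazl, tdrd6a and tdrd7a among those kept. Of these, dazl read 4.46, 4.87 and 5.72 in zCdx1b pools and 4.29 and 4.64 in wild-type pools. The piRNA pathway gene piwil1 read 4.76, 4.76 and 5.04 in zCdx1b pools and 3.92 and 4.77 in wild-type pools. The kept genes dnd1 and lhx8a did not follow the members, with wild-type pool 2 the highest of the 5 pools in both. In dnd1 zCdx1b pool 1 was the highest of the zCdx1b pools and zCdx1b pool 2 the lowest. In lhx8a all 3 zCdx1b pools lay below the wild-type mean. The fitted change was 0.474 for dnd1 and -0.297 for lhx8a (log2), without a call. The meiotic genes sycp1 and sycp3, the oocyte factor nobox and the tudor gene tdrd5 were at or below the background bound in all 5 pools. The gene that rose was tdrd7a, by 1.04 (log2, SE 0.27, limma adjusted p = 0.0430), at least 1.69-fold, after passing the filter through the zCdx1b pools only, and the one that fell was ybx1, by 1.05 (SE 0.14, limma adjusted p = 0.00529). ybx1 is broadly expressed. The log2 of the list's summed level was 10.3, 11.2 and 12.2 in zCdx1b pools and 11.4 and 11.2 in wild-type pools. In zCdx1b pool 1 and both wild-type pools most of that sum came from ybx1, so it does not stand for the list. Without zCdx1b pool 1 the list had 13 genes higher and 1 lower, where 9.4% of all probe sets were called higher and 7.82% lower. Of the 13, larp6b, tdrd6a and tdrd7a had passed the filter through the zCdx1b pools only, where they are high. Their calls carry no weight. For the genes in the members' order, leaving out zCdx1b pool 1 fixed the direction in advance. The call of tdrd7a with all pools carries no weight either. It was lost without zCdx1b pool 2 or 3 or either wild-type pool, with an adjusted p between 0.0532 and 0.152.

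**Figure D4:**
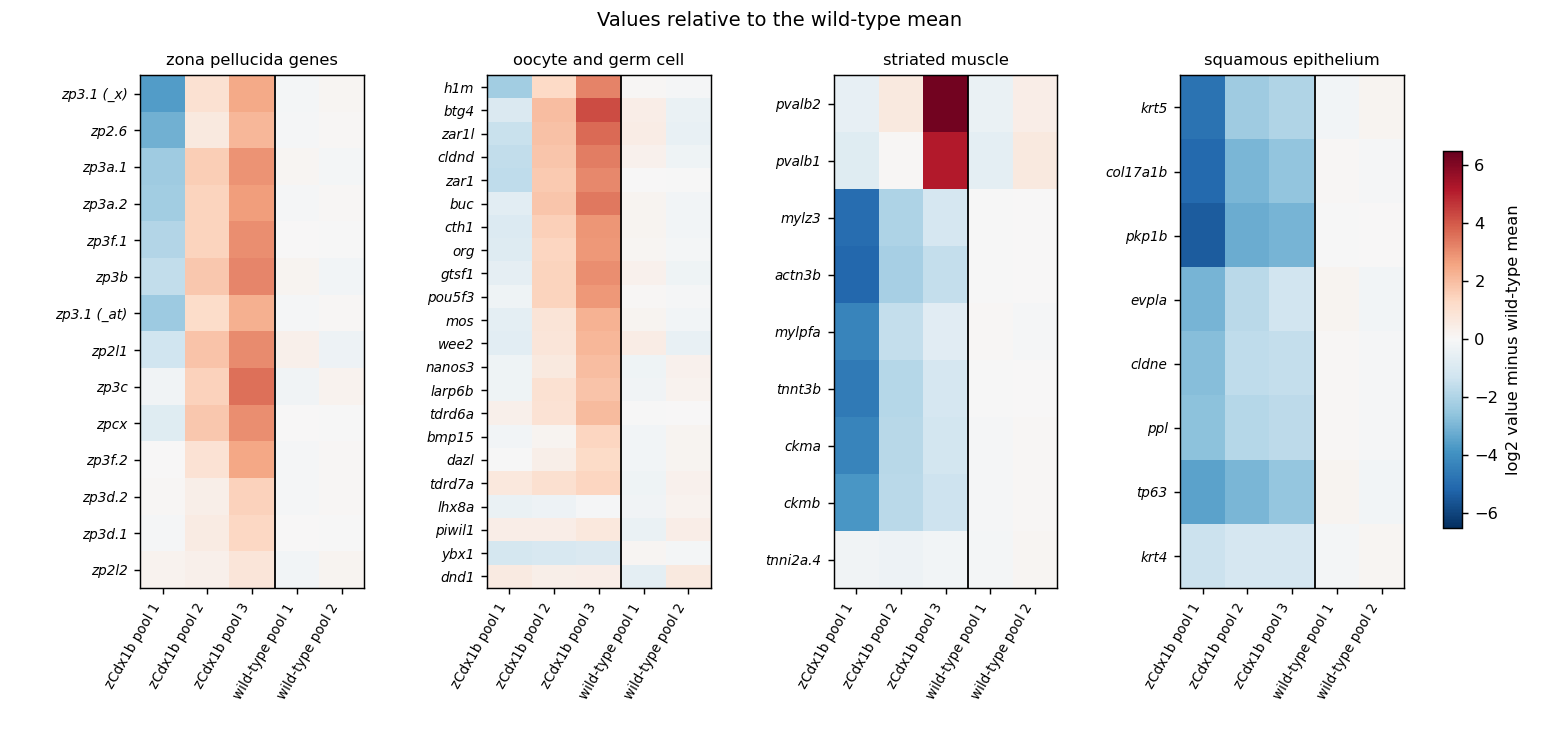
Log2 value minus the wild-type mean (colour, red above and blue below) in each of the 5 pools (columns) for the 14 zona pellucida probe sets and for the genes kept on 3 lists (rows, by the gap between zCdx1b pools 3 and 1). Zona pellucida and many oocyte genes are above wild type in zCdx1b pools 2 and 3, while 7 of 9 striated muscle and all squamous genes are below it in all 3 zCdx1b pools.

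The 10 named genes outside the zp family whose profile over the 5 pools lay nearest to that of the _x_at probe set of zp3.1, the member with the widest range, included h1m, acp5a and tmsb5. The distance was the root mean square difference of centred log2 values over 5 pools. It was 0.55 for h1m, 0.67 for acp5a, an acid phosphatase gene, and 0.66 for tmsb5, against a median of 2.07 over all probe sets kept. The other 7 carried clone or locus names, the nearest being zgc:173856 at 0.45. Among members the distance ran up to 1.88, at zp2l2.

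Markers of other cells were read beside the members. Of 14 ovarian follicle somatic genes measured, 6 passed the filter, with a median change of -0.23. In zCdx1b pools 0 were higher and 2 lower, where 10.1% of all probe sets tested were higher and 11.7% lower. The 2 were the activin subunit genes inhbaa, which was at least 2.11-fold lower (limma adjusted p = 0.00419), and inhbb, which fell by 0.79 (SE 0.21, limma adjusted p = 0.0420). All 3 zCdx1b values of inhbaa were at or below the bound. It passed the filter through the wild-type pools only, where it is high, so its call carries no weight. The call of inhbb was lost without any 1 of the zCdx1b pools or without wild-type pool 1, at an adjusted p between 0.0813 and 0.153. The aromatase gene cyp19a1a, the gonadal factor gene gsdf and the receptor gene fshr were at or below the bound in all 5 pools. The summed level of all 14 follicle genes, as log2, was 7.74, 7.67 and 8.52 in zCdx1b pools and 7.73 and 7.98 in wild-type pools. The higher sum in zCdx1b pool 3 came mainly from the gene star, described below. The steroidogenic genes star, cyp11a1.1 and cyp17a1 were highest in zCdx1b pool 3. The follicle list gene nr5a1a was lowest there, at 4.88, 4.24 and 3.69 in zCdx1b pools and 3.82 and 5.38 in wild-type pools. The cholesterol transport gene star read 3.66, 3.62 and 7.33 in zCdx1b pools and 4.11 and 3.76 in wild-type pools. The side-chain cleavage gene cyp11a1.1 read 3.31, 4.04 and 4.94 in zCdx1b pools and 3.54 and 3.50 in wild-type pools, above its bound in zCdx1b pools 2 and 3 alone. It was the 1 follicle gene of the 14 in the members' full order. The rank of zCdx1b pool 1 and the wild-type pools has no meaning there, since all were at or below background. The gene cyp17a1 read 3.92, 4.32 and 5.29 in zCdx1b pools and 3.79 and 3.95 in wild-type pools, thus with zCdx1b pool 3 highest and zCdx1b pool 2 second. Of these, star, cyp17a1 and nr5a1a were tested and did not pass. Of 13 measured genes on the testis list, 10 were at or below the bound in all pools and 1 passed the filter, with 0 called and a change of 1.37. That gene, the cyclin gene ccna1, read 4.13, 6.43 and 8.23 in zCdx1b pools and 4.98 and 4.81 in wild-type pools, in the members' order, and was higher without zCdx1b pool 1 (change 2.44, adjusted p = 0.0271). The direction without zCdx1b pool 1 was fixed in advance, since zCdx1b pools 2 and 3 already lay above both wild-type pools. Whether ccna1 marks testis cells in this tissue was not tested. The testis list's summed level, as log2, was 7.25, 7.65 and 8.70 in zCdx1b pools and 7.07 and 7.44 in wild-type pools. In zCdx1b pool 3 most of that sum came from ccna1, so it does not stand for the list. The part of ovary or other gonad cells in the members' values was not tested.

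The yolk protein genes measured did not follow the egg coat genes. The vitellogenin gene vtg2, which encodes a yolk precursor made by the liver of females, read 3.97, 4.35 and 3.82 in zCdx1b pools and 4.18 and 6.06 in wild-type pools. vtg4, of the same family, read 4.98, 5.0 and 4.41 in zCdx1b pools and 4.70 and 6.63 in wild-type pools. For both, wild-type pool 2 was the highest of the 5 pools and zCdx1b pool 3 the lowest. In vtg2 zCdx1b pools 1 and 3 were just above their background bounds of 3.95 and 3.74, so their rank is uncertain. vtg3 was at or below the bound in all 5 pools. The yolk receptor gene vldlr read 5.88, 6.15 and 6.58 in zCdx1b pools and 6.29 and 6.75 in wild-type pools. Its zCdx1b pool 1 was the lowest of the 5, but wild-type pool 2 was the highest. Of 7 yolk protein, yolk receptor and estrogen receptor genes measured, 5 passed the filter, with a median change of -0.31. Of these 1 rose, 0 fell and 4 did not pass the test, where 10.1% of all probe sets tested rose and 11.7% fell. The gene that rose was the estrogen receptor gene esr2b, by 3.06 (log2, SE 0.29, limma adjusted p = 0.00142), at least 6.89-fold, with 6.88, 6.79 and 6.35 in zCdx1b pools and 3.30 and 3.93 in wild-type pools. It passed the filter through the zCdx1b pools only, where it is high, so its call carries no weight.

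The pools also differed in other tissues. Among kept genes of each list, relative to wild type, striated muscle markers had medians of -4.30, -1.74 and -1.07 in zCdx1b pools 1, 2 and 3, with 0 of 9 higher and 0 lower, but 6 lower without zCdx1b pool 1. Squamous epithelium markers had medians of -3.24, -2.08 and -1.81, with 0 of 8 higher and 8 lower. Over all probe sets tested 11.7% were called lower, and 7.82% without zCdx1b pool 1. The medians of both lists were thus lowest in zCdx1b pool 1, as for the members, but stayed below wild type in zCdx1b pools 2 and 3. A gap of over 3 between zCdx1b pools 3 and 1 was found in 8 striated muscle probe sets too. The parvalbumin gene pvalb2 of fast muscle read 3.55, 4.71 and 10.35 in zCdx1b pools and 3.63 and 4.54 in wild-type pools. Its values stood in the members' order, but those of zCdx1b pool 1 and wild-type pool 1 were at or below background. The rank of those pools has no meaning there. Its range, 6.80, was wider than that of any member. Its relative pvalb1 read 3.27, 4.15 and 9.19 in zCdx1b pools and 3.41 and 4.70 in wild-type pools, high in zCdx1b pool 3 alone. Of the intestinal absorptive markers 10 of 11 rose, as did 9 of 9 exocrine pancreas and 9 of 9 hepatocyte genes. Among all probe sets tested 10.1% were called higher. These 3 lists varied little between zCdx1b pools, with medians of 5.81, 5.63 and 5.46, then 8.76, 8.59 and 8.43, then 7.99, 7.84 and 7.56. In wild-type pools 1 and 2, 5 and 5 of the 11 intestinal absorptive, 5 and 5 of the 9 exocrine pancreas and 7 and 6 of the 9 hepatocyte markers were at or below the background bound, so these medians rest in part on wild-type values not above background. Some of the intestinal absorptive, exocrine pancreas and hepatocyte markers called had passed the filter through the zCdx1b pools only, where they are high. Those calls carry no weight. The part of tissue makeup in the egg coat values was not tested.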

How the data were processed

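Expression was measured on 5 arrays of Affymetrix type. The values analysed are the log2 expression values deposited by the authors, with a single value for each probe set. The submitters' processing notes name MAS5, without a version or scaling, and give no log step, so the base was read from the value range, 2.23 to 13.58. Array means were all 4.89. Of 15617 probe sets 115 were controls and left out. Names came from GEO's platform annotation, updated by Entrez identifier against RefSeq of GRCz12tu, where 13 of the 14 member probe sets matched. No sequences or genome coordinates are given.

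Kept were 10335 probe sets that reached the array's 40th percentile on 2 or more of the 5 arrays. Groups were compared with limma 3.58.1 (R 4.3.3; lmFit, eBayes with trend, two-sided, Benjamini-Hochberg over all kept, threshold 0.05), tested on simulated data. p-values measure the spread between pools, whose number limits the precision. Lists were described by counts and medians, with 1 probe set per gene, that of the highest mean level. They covered other zona pellucida domain, oocyte and germ cell, ovarian follicle somatic, testis, yolk and estrogen receptor, intestinal absorptive, squamous epithelium, exocrine pancreas, hepatocyte and striated muscle genes. Named were all members, the 10 genes of nearest profile, any gene of the first 2 lists and the yolk list, and up to 4 of the others by highest mean level. The follicle and muscle genes cyp11a1.1, cyp17a1, cyp19a1a, gsdf, fshr, inhbaa, inhbb, nr5a1a, star, pvalb1 and pvalb2 were named after their values were seen. Members and lists were chosen with earlier results of these data known, and the background bound afterwards. Alternatives were quantile and median scaling, other filters, a fit without a trend or with a robust one, a replicate block, and each pool left out. The labels do not say that replicate numbers mark shared fish or days.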

Additional observations from a re-analysis of the deposited data

How the results depend on the processing

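With all 5 pools, 0 of the 12 zona pellucida probe sets tested were called under quantile normalization, median centring, no filter, a 60th percentile filter (10 tested), no trend, a robust trend and the replicate block. With 1 pool left out, 0 to 10 were called, the 10 without zCdx1b pool 1. Their median change was 0.79 with all pools, 0.69 after quantile normalization, 0.85 with median centring, and between -0.07 and 2.16 with 1 pool left out. The members' median SD over zCdx1b pools was 2.35, and 0.92 to 3.20 with 1 zCdx1b pool left out. The order of pools held for 11 of 14 probe sets after quantile normalization and 9 after median centring.

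With the replicate number as a block the median change was -0.07, and the plain probe set of zp3.1, zp3a.1, zp3a.2 and zp3f.1 turned to -0.58, -0.35, -0.41 and -0.23, without a call. zCdx1b pool 3 has no partner in that fit, so its changes equal those without that pool. The deviations of same-numbered pools correlated at -0.25 and -0.13. With 2 wild-type pools these deviations mirror each other, so the correlations cannot show whether replicate numbers mark shared fish or days.

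Signs of uncalled changes also turned when pools were left out. Across these fits the change ran from -0.58 to 1.75 for the plain and from -1.32 to 1.73 for the _x_at probe set of zp3.1, from -1.25 to 1.41 for zp2.6, from -0.35 to 2.26 for zp3a.1, from -0.41 to 2.08 for zp3a.2 and from -0.23 to 2.24 for zp3f.1. Over all probe sets, 2250 were called, 1043 higher and 1207 lower, and with 1 pool left out 979 to 2614 were called, 633 to 1221 higher and 346 to 1700 lower, with the fewest without zCdx1b pool 2.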
